A study of Rattus norvegicus with 35 samples.

Results

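The genes described here are 10 apolipoproteins and serum proteins of the visceral endoderm, Apoe, Apom, Apoa1, Apoa2, Apoa4, Apob, Afp, Ttr, Rbp4 and Tf. They were chosen by name, each matched 1 transcript record of the count table (NM_138828 for Apoe), and they are 10 of 17198 features, a feature being all records of a gene symbol or a record without one. The libraries were 34 single cells and 1 bulk population control of rat converted hypoblast stem cells. All of them came from rat embryonic stem cells that had been grown with the cytokine LIF, the growth factors PDGF and EGF, and fetal bovine serum at 2%, and all were taken on day 12 of differentiation. The cells were isolated and their RNA was amplified on the C1 microfluidic system. The labels name no second culture, so the cells are 1 sample and the bulk library is another, and no difference between them or among cells could be tested. A replicate check is missing throughout, and errors given as SD are the spread between cells of 1 sample.

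Apolipoproteins coat lipid particles and direct them to receptors. In the rodent yolk sac the visceral endoderm secretes these proteins, together with carriers of iron, retinol and thyroid hormone, much as the liver does later. Apob is the structural protein of large lipoproteins, Apoa1, Apoa2 and Apoa4 are exchangeable apolipoproteins, Apoe is the ligand through which particles bind lipoprotein receptors on cells, and Apom carries sphingosine-1-phosphate. Afp (alpha-fetoprotein), Ttr (transthyretin, a carrier of thyroid hormone), Rbp4 (retinol-binding protein) and Tf (transferrin, the iron carrier) are soluble serum proteins. Parietal endoderm, the other derivative of the hypoblast, is known for basement membrane and not for these serum proteins.

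Cells held 6288 to 503044 reads (median 266046) and the bulk library 47121. Levels are in CPM, reads per 1000000 reads of the library, and detection means at least 5 CPM. CPM does not correct for transcript length, so a gene's level is compared across libraries, and values of different genes side by side do not rank them by level. Cells with at least 50000 reads and at least 3000 features with a read are called gene-rich, and there were 22 of them. Of nonzero counts, 59.8% to 72.6% were even in the cells and 79.9% in bulk. Whether both mates of a read pair were counted is not given in the sources used here; if they were, the Poisson intervals and floors below are too narrow even for counting error, which is all that they cover. Set against the hypoblast label, all 8 measured hypoblast markers had a read and 6 of them were detected in at least 17 cells. The number was 6 of 9 for parietal endoderm markers and 2 of 11 for visceral endoderm markers, which leave out the members, and 0 for pluripotent cell (5 measured), fibroblast (7), macrophage (10), trophoblast (7) and blood markers (4). Of all features, 17% were detected in at least 17 cells. All 6 hepatocyte markers, among them Alb and Ahsg, had 0 reads in every library.

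The 250 bases before the annotated start are shown for 3 members, since Apoe was the member found in most cells, and Apoa4 and Tf were found above 5 CPM in 1 and the same cell. The sequences are from RefSeq on the GRCr8 build, are written 5′ to 3′ on the strand of the gene, and were matched by symbol, with entries for 7 of the 10 members and none for Apoa1, Apoa2 and Apob. For Apoe the window before the middle one of 3 listed starts is given. Capitals mark matches on either strand to any of 5 motifs. AGGTCA is the half-site of nuclear receptors. AGATAA is a motif of GATA factors. GGGCGG is the GC box. TATAAA is the TATA box. TGTTTAC is a motif of forkhead factors. None of these matches overlapped another.
Apoe (chr1:88484700-88484949, minus strand): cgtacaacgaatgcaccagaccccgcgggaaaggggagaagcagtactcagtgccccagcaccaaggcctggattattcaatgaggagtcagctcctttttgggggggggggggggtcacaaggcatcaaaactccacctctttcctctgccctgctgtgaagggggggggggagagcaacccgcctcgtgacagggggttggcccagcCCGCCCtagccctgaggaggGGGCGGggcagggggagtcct
Apoa4 (chr8:55435529-55435778, plus strand): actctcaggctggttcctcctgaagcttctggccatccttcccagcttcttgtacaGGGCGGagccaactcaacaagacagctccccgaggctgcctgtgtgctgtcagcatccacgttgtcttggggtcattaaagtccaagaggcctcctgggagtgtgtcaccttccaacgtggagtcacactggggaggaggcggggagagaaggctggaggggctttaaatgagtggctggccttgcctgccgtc
Tf (chr8:112695377-112695626, minus strand): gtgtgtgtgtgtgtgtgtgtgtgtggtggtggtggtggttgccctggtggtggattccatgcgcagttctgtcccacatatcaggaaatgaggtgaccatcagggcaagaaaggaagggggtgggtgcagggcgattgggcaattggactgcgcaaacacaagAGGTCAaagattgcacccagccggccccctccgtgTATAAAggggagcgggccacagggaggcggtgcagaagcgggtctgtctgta
The Apoe window held GGGCGG on its plus strand, 21 bases before the start, and on its minus strand, 41 bases before it. These distances hold for the middle start only. Before the listed start with the lowest coordinate the same matches lay at 200 and 220 bases, and the window of the remaining start held no match. The Apoa4 window held GGGCGG once, 194 bases before the start, and 30.5% of all 33469 windows of this length held it. The Tf window held AGGTCA 87 bases and TATAAA 52 bases before the start, motifs present in 14.1% and 12.9% of all windows. AGATAA, in 10.3% of windows, and TGTTTAC, in 3.21%, did not occur in the 3 windows shown. A match describes letters and not a bound site.

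Apoe was expressed in most cells. It was detected in 26 of 34 cells (76.5%, Clopper-Pearson 95% interval 58.8% to 89.3%) at a mean of 1032 ± 1101 CPM (SD over 34 cells). Over all cells its level was lowest at 0 reads in 8 cells, had a median of 822 CPM and was highest in C38, with 3893 CPM. The cells fell into a high range and a low one with a gap between them, described at 500 CPM, a level picked after the values were seen. In 21 cells Apoe lay at 500 CPM or more, from 692 CPM in C32 to 3893 CPM in C38. In 5 cells it lay between 78.8 CPM in C74 and 356 CPM in C47, and none of these 5 was gene-rich. Of all 17198 features, 5.16% were detected in at least 26 cells.

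Among the 22 gene-rich cells, 19 held Apoe, and all 19 were in the high range. Their levels had a lowest value of 692 CPM, a median of 1236 CPM and a highest value of 3893 CPM, a 5.63-fold range. The 7 highest of all cells were C38, C05, C43, C37, C72, C13 and C33, from 3893 to 2099 CPM, and the next cell, C23, had 1391 CPM. Of all features, 9.48% were detected in as many gene-rich cells or more. The coefficient of variation of Apoe over the gene-rich cells, with the 3 cells at 0 included, was 78.4%. For 89 features matched to Apoe on mean CPM within 1.5-fold in these cells, a match of read number and not of level per length, the median was 51.5% and the quartiles were 40.2% and 70.0%, and 76 of the 89 varied less than Apoe. These 89 features were detected in a median of 22 of the 22 cells. Over the 19 gene-rich cells with Apoe the coefficient for Apoe was 62.5%, and the 89 features were not recomputed there.

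**Figure D1:**
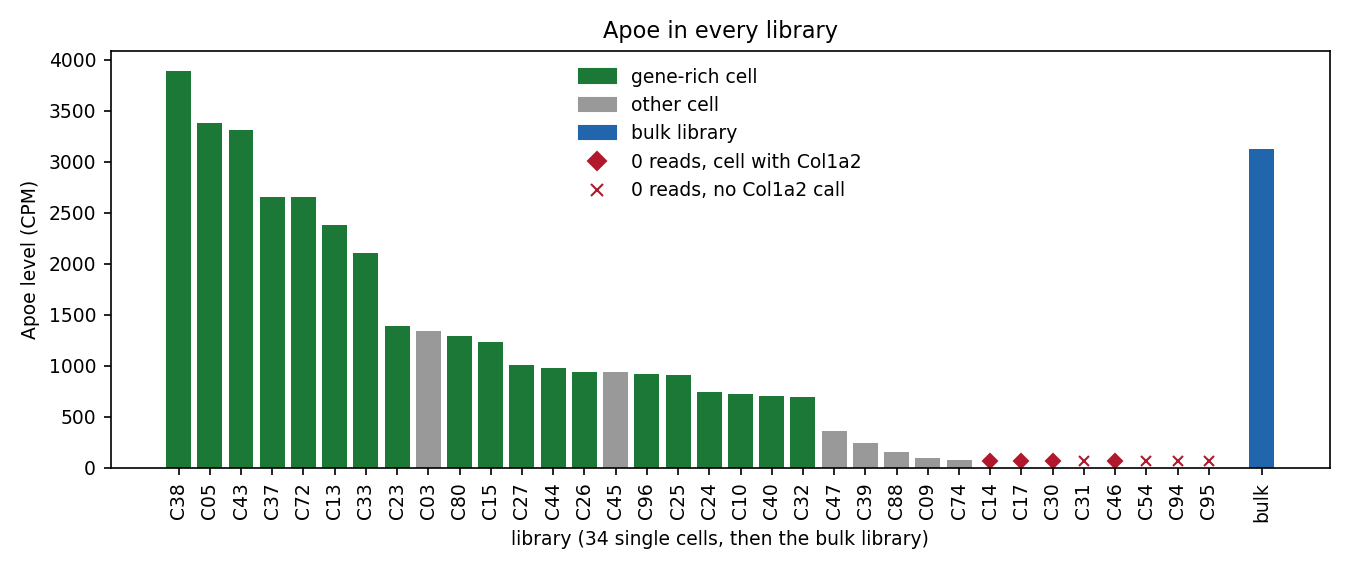
Apoe level in CPM (linear axis) in each of the 34 cells, ordered from high to low, and in the bulk library at the right; green bars are gene-rich cells, grey bars other cells, and red symbols stand just above the axis where a cell had 0 reads. The bars drop from 692 CPM in C32 to 356 CPM in C47, 8 cells are at 0, and 3 cells lie above the bulk library at 3120 CPM.

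The 8 cells with no Apoe read were C14, C17, C30, C31, C46, C54, C94 and C95. They comprised all 4 cells in which Col1a2 was detected (C14, C17, C30 and C46), a fibrillar collagen chain typical of fibroblasts, while 26 of the 30 cells without Col1a2 held Apoe. In the cells with Apoe, fibroblast markers summed to 0 to 1403 CPM, with a median of 0 and a read of any marker in 3 of 26 cells. In the cells without Apoe they summed to 0 to 3083 CPM, with a median of 126 CPM and a read in 4 of 8 cells. Of 7 measured fibroblast markers, Lum and Thy1 had 0 reads in all cells. Other markers of the list did not follow Col1a2. Col1a1 was detected in 4 cells, C14, C17, C30 and a cell with Apoe, and had 0 reads in C46. Postn was highest in C03, at 1403 CPM, a cell with 1344 CPM of Apoe. How many of all features were found only in cells without Apoe was not computed. The part of cells with fibroblast markers in the result was not tested, and C54, C95, C31 and C94 lacked Apoe with 0 reads of Col1a1 and Col1a2.

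Depth does not set all of these zeros to the same limit. In C54, the deepest cell, 0 of 503044 reads allow up to 5.96 CPM, and in C95, 0 of 450250 reads allow up to 6.66 CPM, each taken as 3 reads. Both values lie far under the lowest gene-rich cell with Apoe. In C94, with 6288 reads, the same floor is 477 CPM, and in C30 it is 110 CPM, so a low Apoe level was not detectable there. Cells with Apoe had 445 to 5514 features with a read (median 4474), against 349 to 4028 (median 2153) in the cells without Apoe. Spearman's rho of Apoe with the number of features with a read was 0.71 over 34 cells and 0.33 over the 19 gene-rich cells with Apoe, given as a description since both numbers come from the same library. With total reads it was 0.36 and 0.01. The part of library quality in the zeros was not tested.

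Of the 8 cells without Apoe, 6 had a read of at least 1 of 8 hypoblast markers, while C30 and C94 had 0 reads of all 8. In C17 these were 3 reads of Sox7 and 1 of Pdgfra. Gata4, a GATA factor of the extraembryonic endoderm, was detected in C31, C54 and C95, at 354, 573 and 1512 CPM. Gata6 was detected in C14, C31, C46 and C54, and the endocytic adaptor Dab2 in C46, C54 and C95. Of the 26 cells with Apoe, 24 had Gata6, 23 Gata4, 24 Dab2, 22 Sox17 and 20 Pdgfra. Foxa2, a forkhead factor of endoderm, was detected in 19 cells, and each of the 19 also held Apoe, as did 26 of all 34 cells. How many of all features lay only in cells with Apoe was not computed, so this overlap does not set Foxa2 apart. Summed over 8 hypoblast markers, the level was 301 to 11765 CPM in cells with Apoe (median 1603) and 0 to 3574 CPM in cells without it (median 87.5). Summed over 9 parietal endoderm markers, it was 2574 to 20063 CPM (median 11493) and 171 to 30269 CPM (median 1815). Apoe was not the only widely found gene missing from C54 and C95. Both had 0 reads of the parietal marker Lama1. Col4a1 had 8 reads in C54 and 0 in C95, and Sparc had 2 and 292.

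The bulk library held more Apoe than the mean of the cells. The cells' mean of 1032 CPM stood against 3120 CPM in bulk, from 147 reads (Poisson 95% interval 2636 to 3667 CPM), a ratio of 0.331 (interval 0.282 to 0.392, from the bulk reads alone). Of the cells, 3 lay above the bulk level and 31 below it. Over the 22 gene-rich cells the mean was 1450 ± 1137 CPM, 0.465 of bulk, and with all cells' reads pooled it was 1269 CPM, 0.407 of bulk. Among 9023 features whose level averaged 1 CPM or more over cells and bulk, 22.1% were likewise at or under 0.5 of bulk in the cells, and among 2019 features averaging 100 CPM or more the share was 26.6%. In a bulk level, the share of cells of a type and the RNA per cell cannot be told apart.

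The other 9 members had few reads or none. In all, 4 of the 10 members were detected in at least 1 cell, where 59.7% of all features were. Together the 9 had 93 reads in the cells, spread over 6 cells and 4 genes, and 0 reads in bulk. Their summed level averaged 8.57 ± 29.8 CPM over the cells, and C33 alone held 53.2% of it; without C33 the mean was 4.13 CPM. Apoa1, Apoa2, Apob, Ttr and Rbp4 had 0 reads in all 35 libraries. A count of 0 in the 8060038 reads of the cells allows up to 0.372 CPM over the pooled cells, and 0 of 34 cells allows a share of cells with detection up to 10.3% (Clopper-Pearson). In bulk the floor of 3 reads is 63.7 CPM, so a low level could not have been seen there. Of all features, 37.8% had no read in any cell and 72.4% had none in bulk, so a zero alone does not set these genes apart.

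Apom was the most widely found of the 9. It had 25 reads in C05 (81.2 CPM), 9 in C27 (30.04 CPM) and 6 in C32 (18.5 CPM), and 0 in the other 31 cells and in bulk. These were 3 gene-rich cells with Apoe at 3382, 1008 and 692 CPM, which span the high range of Apoe from near its top to its lowest cell. No cell had reads of Apom together with another of the 8 remaining members. Afp had 1 read, in C44, equal to 3.07 CPM and under the detection level.

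Apoa4 and Tf were found in 1 and the same cell. C33 held all 38 reads of Apoa4 (115 CPM) and 13 of the 14 reads of Tf (39.5 CPM), with the last Tf read in C13 (3.40 CPM). Hnf4a, a nuclear receptor that is known to drive many liver and visceral endoderm genes, was detected in C33 only, with 14 reads (42.5 CPM), and its 1 other read was in C43. C33 also had the highest level of all cells for Tfrc, the transferrin receptor, at 596 CPM against at most 309 CPM in any other cell, and for Lipa, the lysosomal lipase, at 322 CPM. Cubn, the endocytic receptor cubilin, was at 1094 CPM in C33, second to 1115 CPM in C32, and Lrp2, its partner megalin, was at 234 CPM, the fourth highest. Apoe in C33 was 2099 CPM, the seventh highest, while Ttr, Afp, Apoa1 and Apob had 0 reads there, as did Foxa2 and Sox7. Other visceral endoderm markers had few or no reads in C33, with 1 of Cdh1, 2 of Amn, 4 of Ihh and 0 of Hhex. Gata4 and Gata6 were at 48.6 and 30.4 CPM in C33, ranks 22 and 27 among the cells. Genes found in 1 cell were not rare in these libraries: 2.82% of 10693 features with a read had at least 10 reads in 1 cell and none in the others. C33 held 16 such features, against a median of 7 and a range of 1 to 33 over the cells. The cell was singled out after its values were seen.

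**Figure D2:**
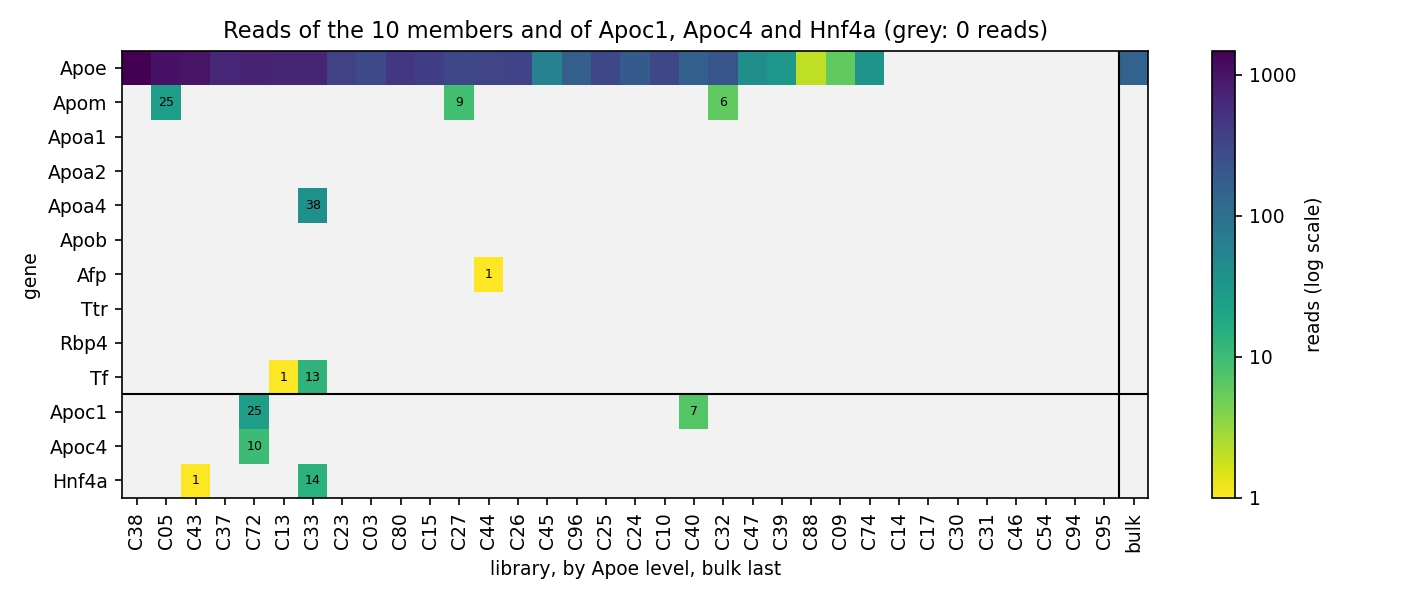
Reads of the 10 members (above the line) and of Apoc1, Apoc4 and Hnf4a (below it) in the 34 cells, ordered by Apoe level, and in the bulk library at the right; colour is the number of reads on a log scale, grey is 0, and numbers give the reads of genes other than Apoe. Apoe fills 26 cells and the bulk library, the other members have reads in 6 cells, and Apoa4, Tf and Hnf4a share C33.

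Genes beside Apoe on the chromosome were each detected in fewer cells than Apoe. In the GRCr8 gene order, the 5 nearest measured genes on one side were Apoc1, Apoc4, Apoc2, Clptm1 and Clasrp, and on the other Tomm40, Nectin2, Bcam, Cblc and Bcl3. Apoc1, Apoc2 and Apoc4 are small apolipoproteins of the same gene cluster. Apoc1 was detected in 2 cells, with 25 reads in C72 and 7 in C40, Apoc4 in 1 cell, with 10 reads in C72, and Apoc2 had 0 reads. C72 had 2651 CPM of Apoe and C40 had 704 CPM. Tomm40, a mitochondrial import channel, and Nectin2, an adhesion protein, were each detected in 12 cells, Clptm1 in 11, Bcl3 in 10 and Clasrp in 6. Bcam, a laminin receptor, and Cblc had 0 reads. None of the 10 neighbours reached 17 cells, a mark that 17% of all features reached. With 10 genes, that count does not set the neighbours apart from all features, whose median was 2 cells.

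The wider lists show which steps around lipoproteins were transcribed. Against them, all 17198 features had a median of 2 cells with detection, and 40.3% were detected in none. Of 10 other measured apolipoprotein genes, Clu, which encodes the secreted chaperone clusterin, was found in 20 cells at 152 ± 258 CPM, with 12 bulk reads (255 CPM). Apool, a mitochondrial protein of the family by name, was detected in 8 cells and Apoo in 4, and 5 of the 10 had no read in the cells. Of 19 other serum proteins, 15 were detected in no cell, the median was 0 cells, and none reached 17 cells. Amn, which anchors cubilin in the membrane and is not itself a serum protein, was detected in 9 cells, F2, prothrombin, in 3, and A2m and Cp in 1 each.

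Genes that load lipid onto apolipoproteins were split. Mttp, the microsomal transfer protein that Apob needs, and Tm6sf2 had 0 reads. P4hb, a disulfide isomerase that also serves as the second subunit of that complex and acts widely in the endoplasmic reticulum, was detected in 31 cells at 1515 ± 1384 CPM, with 144 bulk reads (3056 CPM). Sar1b, a GTPase of vesicles leaving the endoplasmic reticulum, was detected in 22 cells (133 ± 163 CPM), Soat1, an acyltransferase that makes cholesterol esters, in 19 (104 ± 164 CPM), and Dgat2, which makes triglycerides, in 13 (mean 35 ± 59.5 CPM). Abca1, the transporter that loads cholesterol onto Apoe and Apoa1, was detected in 4 cells. In this list of 14 measured genes, 3 reached 17 cells and the median was 3 cells. Of 7 measured lipase genes, 1 reached 17 cells, Lipg, a phospholipase that acts on lipoproteins (23 cells, 264 ± 321 CPM). The counts at 17 cells in both lists were near the 17% of all features.

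Receptors and their helpers were found more widely, with a median of 10.5 cells over 16 measured genes. Lrpap1, the chaperone that keeps lipoprotein receptors such as Lrp1 and Lrp2 from binding ligand on their way to the surface, was detected in 29 cells at 1434 ± 1363 CPM, with 54 bulk reads (1146 CPM). Dab2 was detected in 27 cells, the proteoglycan Sdc4 in 24 (338 ± 409 CPM), Cubn in 20 (162 ± 291 CPM) and Lsr, a lipoprotein receptor, in 18. Lrp2 was detected in 15 cells, Scarb1 in 10 and Lrp1 in 6. Vldlr, Sorl1 and Sort1 had 0 reads in the cells.

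Known regulators of these genes were unevenly present. Of 20 measured, 4 reached 17 cells, a count near the 17% of all features that did. They were Gata6 (28 cells, 346 ± 569 CPM), Gata4 (26 cells, 258 ± 310 CPM), the sterol regulator Srebf2 (25 cells, 270 ± 616 CPM) and Foxa2 (19 cells, 57.6 ± 83.2 CPM). The liver factor Foxa3 had 0 reads in the cells, and Foxa1 and Nr5a2 were each detected in 1 cell. Of the oxysterol receptors that induce Apoe in macrophages, Nr1h2 was detected in 10 cells and Nr1h3 in 3.

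The partners of Rbp4 and Tf were also measured. None of 12 retinol genes reached 17 cells, a mark that 17% of all features reached. With 12 genes, that count does not set them apart. Stra6, the receptor of Rbp4, was detected in 6 cells, and Crabp2 and Lrat in 3 each. Crabp1 was found in C14 alone. Of 11 iron genes, 4 reached 17 cells. The ferritin chains Fth1 and Ftl1 were detected in 34 and 33 cells, at 3351 ± 4715 and 5410 ± 2943 CPM, the haem oxygenase Hmox1 in 25 cells (677 ± 1050 CPM) and Tfrc in 19 (70.7 ± 125 CPM). Near-identical ferritin copies can share reads, and how such reads were counted is not given in the sources used here.

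**Figure D3:**
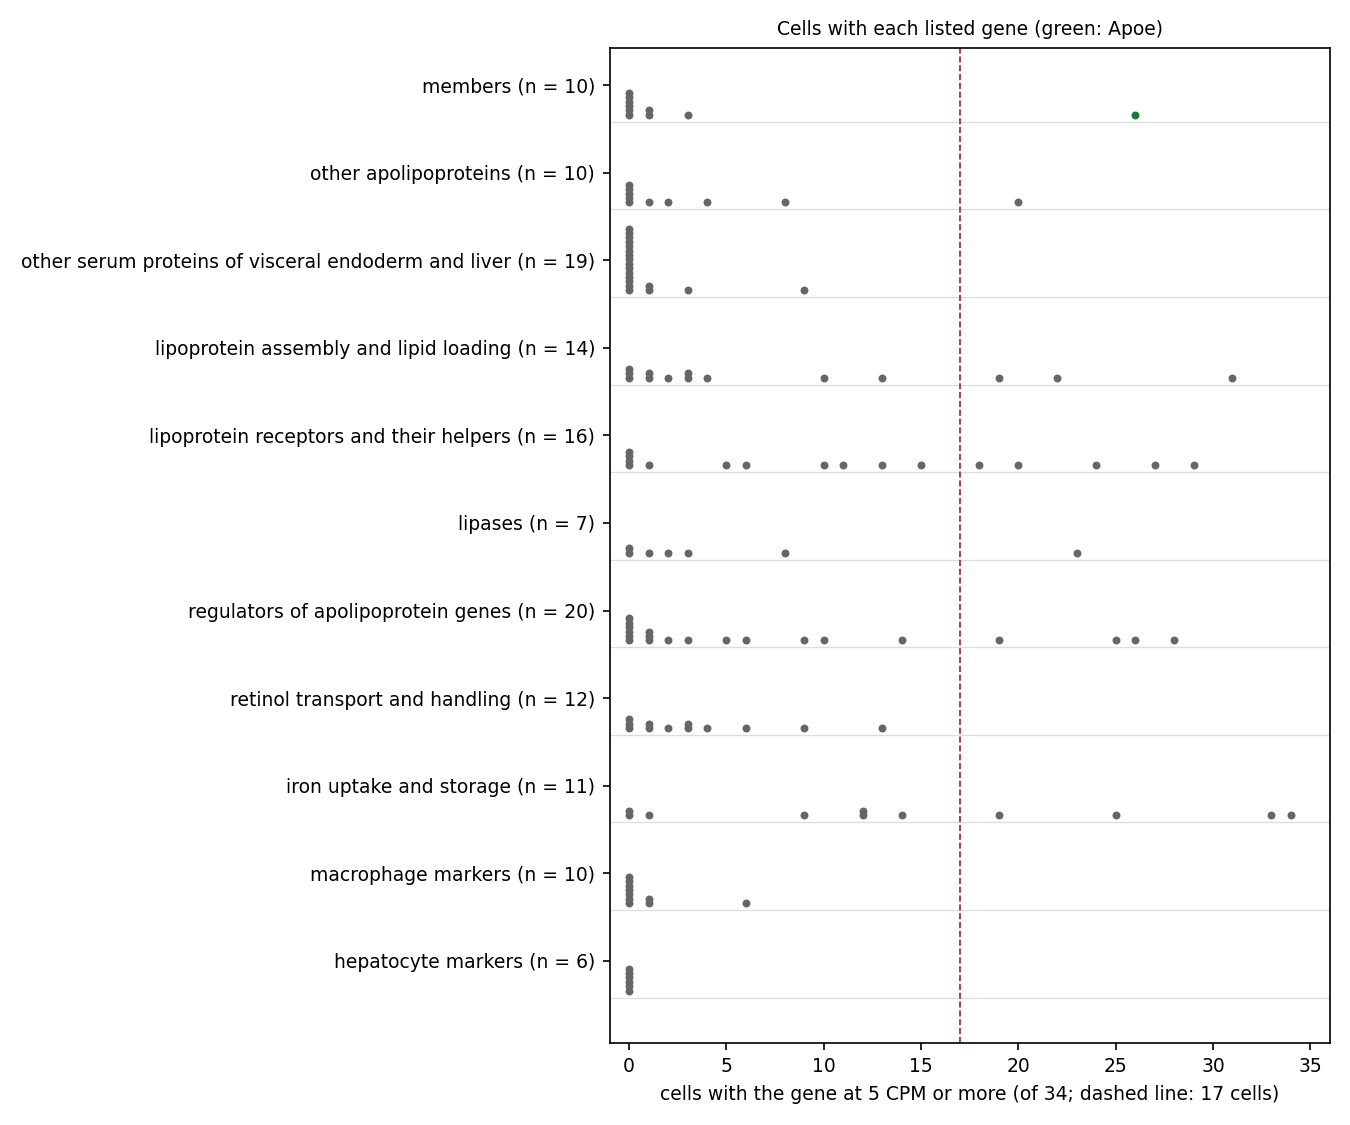
Number of cells (of 34) in which each gene was detected at 5 CPM or more, 1 dot per measured gene, for the 10 members, 8 further lists and the macrophage and hepatocyte markers; dots at the same number are stacked, and the dashed line stands at 17 cells. Apoe, in green at 26 cells, is the one member right of the line, and no serum protein, retinol gene, macrophage or hepatocyte marker is. Of all features, 17% were detected in at least 17 cells.

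Macrophages also make Apoe. Of 10 macrophage markers, 6 had 0 reads in the cells, among them Lyz2, Adgre1, Tyrobp and C1qa, and Ptprc had 1 read. Summed, they reached 0 to 246 CPM in cells with Apoe (median 0, a read in 11 of 26 cells) and had 0 reads in the 8 cells without it. Cd14 was detected in 6 cells, at most at 246 CPM, in C43, Csf1r in 1 cell, C15, at 139 CPM, and Cd68 in 1 cell, C05, at 22.7 CPM. Spearman's rho of Apoe with the summed macrophage markers was 0.54 over all 34 cells, 0.44 over the 22 gene-rich cells and 0.34 over the 19 gene-rich cells with Apoe. The part of macrophage transcripts in the Apoe level was not tested. The 1 read of Ptprc, which marks all leukocytes, was in C25, a cell with 908 CPM of Apoe.

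The gene whose pattern was most like that of Apoe was Lrpap1. Over the 22 gene-rich cells, on log2(CPM + 1), its Spearman rho with Apoe was 0.80, the highest of 4124 genes detected in at least 11 of these cells. The median rho over these genes was 0.07, and 95% of them lay at or under 0.45. Cells share their library and depth in both values, the top gene of many has a high rho by selection, and the rho carries no test. It was 0.73 over the 20 gene-rich cells without Col1a2, 0.69 over the 19 gene-rich cells with Apoe and 0.82 over all 34 cells. Lrpap1 had a read in 24 of the 26 cells with Apoe, with a median of 1710 CPM and a highest value of 4738 CPM in C43. In the 8 cells without Apoe it had a read in 5 and was at most 561 CPM, in C14. C03 went the other way, with 1344 CPM of Apoe and 18.4 CPM of Lrpap1.

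**Figure D4:**
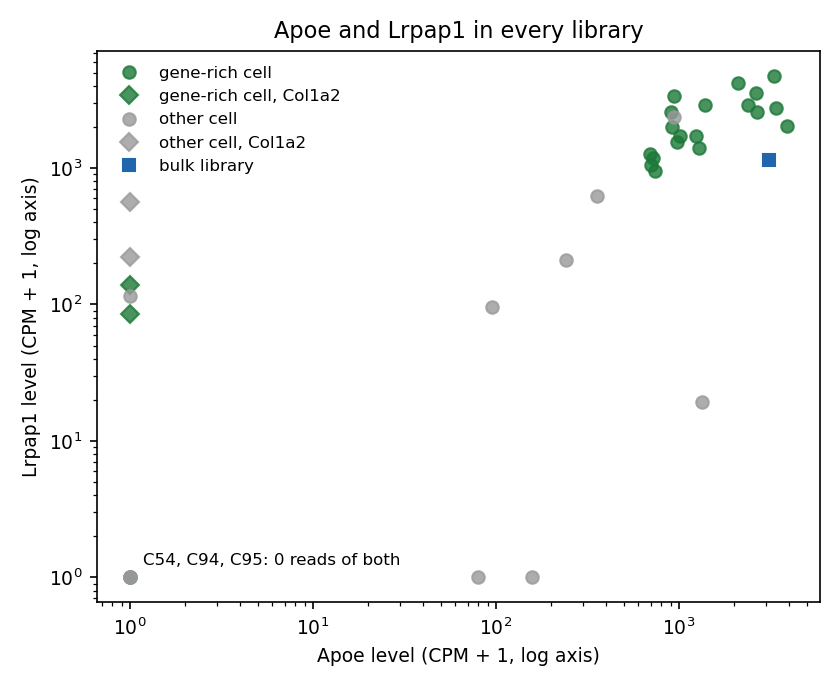
Apoe level against Lrpap1 level (both CPM + 1, log axes) in each cell and in the bulk library; green points are gene-rich cells, grey points other cells, diamonds cells with Col1a2, and the blue square is the bulk library. Gene-rich cells with Apoe sit together at the upper right, cells with Col1a2 stand at 0 for Apoe, and C54, C94 and C95 have 0 reads of both.

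Also high in likeness were Tmbim6, a membrane protein that protects against cell death (rho 0.78), Asah1, the lysosomal acid ceramidase (0.74), and Ubac2 (0.72). These 3 stayed between 0.67 and 0.72 without the cells with Col1a2. The lowest rho values were those of Copz1, a coat protein of Golgi vesicles (−0.71), Dynlt1, a dynein light chain (−0.68), Acta2, smooth muscle actin (−0.66), and 2 records without a symbol. Without the cells with Col1a2 these were −0.67 for Copz1, −0.57 for Dynlt1 and −0.55 for Acta2. Over all 34 cells they were 0.04 for Copz1, −0.45 for Dynlt1 and −0.49 for Acta2, so the negative value of Copz1 held in the gene-rich cells only. Of the parietal endoderm markers, 6 were detected in at least 11 of the 22 cells, and their rho with Apoe was 0.54 for Sparc, 0.50 for Lama1, 0.43 for Col4a1, 0.37 for Srgn, 0.30 for Pth1r and 0.27 for Thbd. Without the cells with Col1a2 these lay between 0.11 for Thbd and 0.39 for Sparc. Over the 19 gene-rich cells with Apoe, the 6 parietal values lay between 0.00 and 0.29. Summed over 9 measured parietal endoderm markers, the rho with Apoe was 0.58 over all 34 cells and 0.55 over the 22 gene-rich cells. It was 0.41 without the cells with Col1a2 and 0.31 over the 19 gene-rich cells with Apoe.

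The 6 hypoblast markers that were detected in at least 11 of the gene-rich cells had a rho between −0.10, for Gata4, and 0.19, for Foxa2. Without the cells with Col1a2, Gata4 was at −0.43, Sox17 at −0.27, Dab2 and Gata6 at −0.18, Foxa2 at −0.01 and Pdgfra at 0.10. Summed over 8 hypoblast markers, the rho with Apoe was 0.25 over all 34 cells, −0.16 over the 22 gene-rich cells, −0.51 without the cells with Col1a2 and −0.46 over the 19 gene-rich cells with Apoe, so its sign depended on which cells were taken. For the visceral endoderm receptor genes, the rho over the 22 cells was 0.14 for Cubn and 0.02 for Lrp2, and without the cells with Col1a2 it was −0.09 and −0.17. For Cdh1, another visceral endoderm marker, it was 0.17 and 0.33. Summed over 11 visceral endoderm markers, the rho with Apoe was 0.47 over all 34 cells and 0.28 over the 22 gene-rich cells. It was 0.18 without the cells with Col1a2 and 0.07 over the 19 gene-rich cells with Apoe.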

How the data were processed

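Messenger RNA was measured in 34 single cells and 1 bulk library. The authors deposited 1 table of raw read counts, as whole numbers, with transcript records in rows and libraries in columns. The submitters' processing notes name TopHat2 and rn5; which program counted reads, on which annotation, and what was done with multiply mapped reads is not given in the sources used here. No strand setting is stated, so overlapping genes cannot be told apart by strand.

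Of 17201 records, 16209 were matched to a symbol by RefSeq identifier, and the other 992, with 4.14% of reads, kept their identifiers. Counts were summed by symbol and scaled to CPM of column totals with pandas 2.3.3 and scipy 1.17.1 in Python 3.11.15. Shares have Clopper-Pearson and reads Poisson 95% intervals, and a count of 0 was given a floor of 3 reads. None of the 561 pairs of cells held identical counts. With 1 sample per group no test was made. Alternatives were other detection levels, TMMwsp factors (edgeR 4.0.16), totals without Rn45s, gene-rich cells, thinning to 50000 reads, the median over cells, pooled reads and leaving out each cell.

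The members, the lists and the tests were chosen with earlier results of these data known. Named genes were the members, from each list the 4 genes highest in mean CPM, the 5 nearest measured genes on each side of Apoe, and the 5 genes with the highest and the 5 with the lowest Spearman rho with Apoe. Other genes named from a list were chosen after their values were seen, and some genes under the rule are not reported here.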

Additional observations from a re-analysis of the deposited data

How the results depend on the processing

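The Apoe mean, 1032 CPM, lay between 822 CPM (median over cells) and 1450 CPM (gene-rich cells) under the other settings, and between 946 and 1064 CPM with each cell left out in turn. The number of cells with Apoe was 26 at 1 read, at 5 CPM and at 50 CPM, 25 of 30 cells after thinning to 50000 reads, and 25 to 26 with a cell left out. The ratio of cells over bulk, 0.331, lay between 0.264 and 0.465, and between 0.303 and 0.341 with a cell left out, so bulk was higher in each of these runs. The number of members detected in at least 1 cell, 4, was 5 at 1 read and 3 at 50 CPM. It was 2 to 4 with a cell left out, and 2 without C33, the cell that held Apoa4 and Tf above 5 CPM. The summed level of the other 9 members, 8.57 CPM, was 0 with the median over cells, 13.2 CPM in the gene-rich cells and 4.13 to 8.82 CPM with a cell left out. The cells with Col1a2 were left out as a choice made after seeing the data, and the Apoe mean was then 1170 CPM and the ratio 0.375. The rho of Apoe and Lrpap1, examined after its value was known, was 0.69 to 0.82 under the other settings and 0.77 to 0.85 with a gene-rich cell left out. No paired analysis was possible because the labels give no replicate numbers and the result comes from no test.

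Depth limits what the shallowest libraries can show: 1 read is worth 159 CPM in C94, 78.4 CPM in C88, 36.7 CPM in C30, 28.03 CPM in C14 and 21.2 CPM in bulk.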

Other observations

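C72, the cell with most reads of Apoc1 and Apoc4, was also the 1 cell with a read of A2m, which encodes a protease inhibitor of serum (36 reads), and it had the highest level of Hmox1 and of Sdc4 among the cells. The cell was singled out after its values were seen. Of the other features found in C33 alone, the DNA repair genes Fan1 and Xrcc4 had 65 and 64 reads, and Prodh, which breaks down proline, had 28 reads; all 3 had 0 reads in bulk.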
